A study of Canis lupus familiaris with 14 samples.

Results

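The genes described here hold back phosphatidylinositol 3-kinase (PI3K) signalling, and they were followed in lymph nodes of dogs with lymphoma and of normal dogs. The group was fixed by name as 8 genes, INPP4A, INPP4B, INPP5D, DEPTOR, TSC1, TSC2, PHLPP1 and PIK3IP1, out of 15115 genes that the canine array lists with a symbol of their own. A gene was taken as measured when at least 1 probe set carried exactly its symbol, which held for 7 of the 8. INPP5D, which encodes the inositol 5-phosphatase SHIP1, had no such probe set and was not analysed here. The other 7 genes had 17 probe sets, and all 7 reached a signal of at least 100 (6.64 on the log2 scale) in at least 3 of the 14 arrays, as did 9400 of all genes.

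PI3K turns a lipid of the inner plasma membrane into PI(3,4,5)P3, which recruits and activates the kinase Akt, and Akt in turn feeds the growth regulator mTOR and keeps FOXO factors out of the nucleus. The pathway carries survival and growth signals from the antigen receptors of both B and T cells. The members act against it at successive steps. PIK3IP1 is a membrane protein that binds the catalytic p110 subunit of PI3K. INPP5D converts PI(3,4,5)P3 to PI(3,4)P2, and INPP4A and INPP4B remove the 4-phosphate from PI(3,4)P2. PHLPP1 dephosphorylates Akt, TSC1 and TSC2 form the complex that switches off RHEB upstream of mTOR complex 1, and DEPTOR binds and inhibits the kinase mTOR.

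The samples were fine needle aspirates from companion dogs with lymphoma, 7 labelled B-cell and 3 labelled T-cell, and from normal lymph nodes of 3 colony Beagles, 1 of which gave a left and a right node (3024l and 3024r). The lymphoma aspirates were taken before the dogs received an investigational PI3K inhibitor, though some of the dogs had had chemotherapy earlier, and no treatment was applied to any sample. The B-cell lymphomas came from a Pitt Bull Terrier and Labrador Retriever cross (FS21), a Boxer and Pitt Bull Terrier cross (NE41), a Labrador Retriever (NE42), a Pointer (RB03), a Chesapeake Bay Retriever (RB16) and the Boxers RB07 and RB10. The T-cell lymphomas came from a Beagle (FS22), a Boxer (FS25) and a Golden Retriever (NE45). The first letters of a name give the clinic, and since all normals came from 1 colony, disease cannot be told apart from breed, colony or clinic. Arrays were run in batches that the sources used here do not tie to single samples. The study divided the lymphomas by their whole profiles into the class E-J, with FS21, FS22, NE41, NE42, RB03 and RB16, and the class K-N, with FS25, NE45, RB07 and RB10. These very arrays went into the classes, so values by class are given below as a description with no test.

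Some libraries stood apart before any member was looked at. Over the 14 arrays, 47.2 to 55.7% of probe sets had a signal of at least 100. The ratio of 3′ to 5′ GAPDH probe sets, which rises as RNA is degraded, was 23.2 on 3024l and 3.30 to 8.94 on the other arrays. CD3E, which belongs to the CD3 complex of the T-cell receptor, read 12.11 on the log2 scale on RB07 and 12.54 on RB10 although both were labelled B-cell, and CD79A, part of the B-cell receptor, was at 8.06 and 8.11 there. FS22, labelled T-cell, had CD3E at 8.80 and CD79A at 10.09. By CD3E and CD79A these 3 arrays went against their labels. MS4A1, the B-cell antigen CD20, did so in RB07 alone, at 2.89. It was 10.40 in RB10, within the 9.88 to 11.17 of the normals, and 4.90 in FS22, below them. The comparison by labelled diagnosis is given with and without these 3 arrays. Summed over 12 T-cell markers, the signal was 3121 to 15834 in E-J, 15443 to 34962 in the normal nodes and 53874 to 73905 in K-N, while 9 B-cell markers summed to 10703 to 29557, 5783 to 9899 and 628 to 2952.

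INPP4B showed the widest separation among the members. Its level is given as the mean log2 signal of its probe sets. The normal nodes 63, 2970, 3024l and 3024r were at 8.81, 8.73, 8.15 and 7.69. The lymphomas of E-J lay lower, at 5.81 in FS21, 5.63 in FS22, 5.37 in NE41, 6.24 in NE42, 6.04 in RB03 and 5.97 in RB16. The lymphomas of K-N lay higher, at 10.39 in FS25, 10.62 in NE45, 10.32 in RB07 and 9.74 in RB10. None of the 3 ranges overlapped. The gap was 1.45 between E-J and the normals and 0.93 between the normals and K-N. The class means were 5.84 ± 0.31 (SD, n = 6) in E-J, 8.35 ± 0.53 (n = 4, from 3 dogs) in the normals and 10.27 ± 0.37 (n = 4) in K-N. All 6 gene means of E-J were below a signal of 100. E-J minus normals was -2.50, K-N minus normals 1.92 and K-N minus E-J 4.43 on the log2 scale. With probe set signals under 100 raised to 100 before averaging, these differences were -1.79, 1.67 and 3.45. The order did not follow the diagnosis on the label, as FS22 (T-cell) sat with the low arrays and RB07 and RB10 (B-cell) with the high ones.

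**Figure D1:**
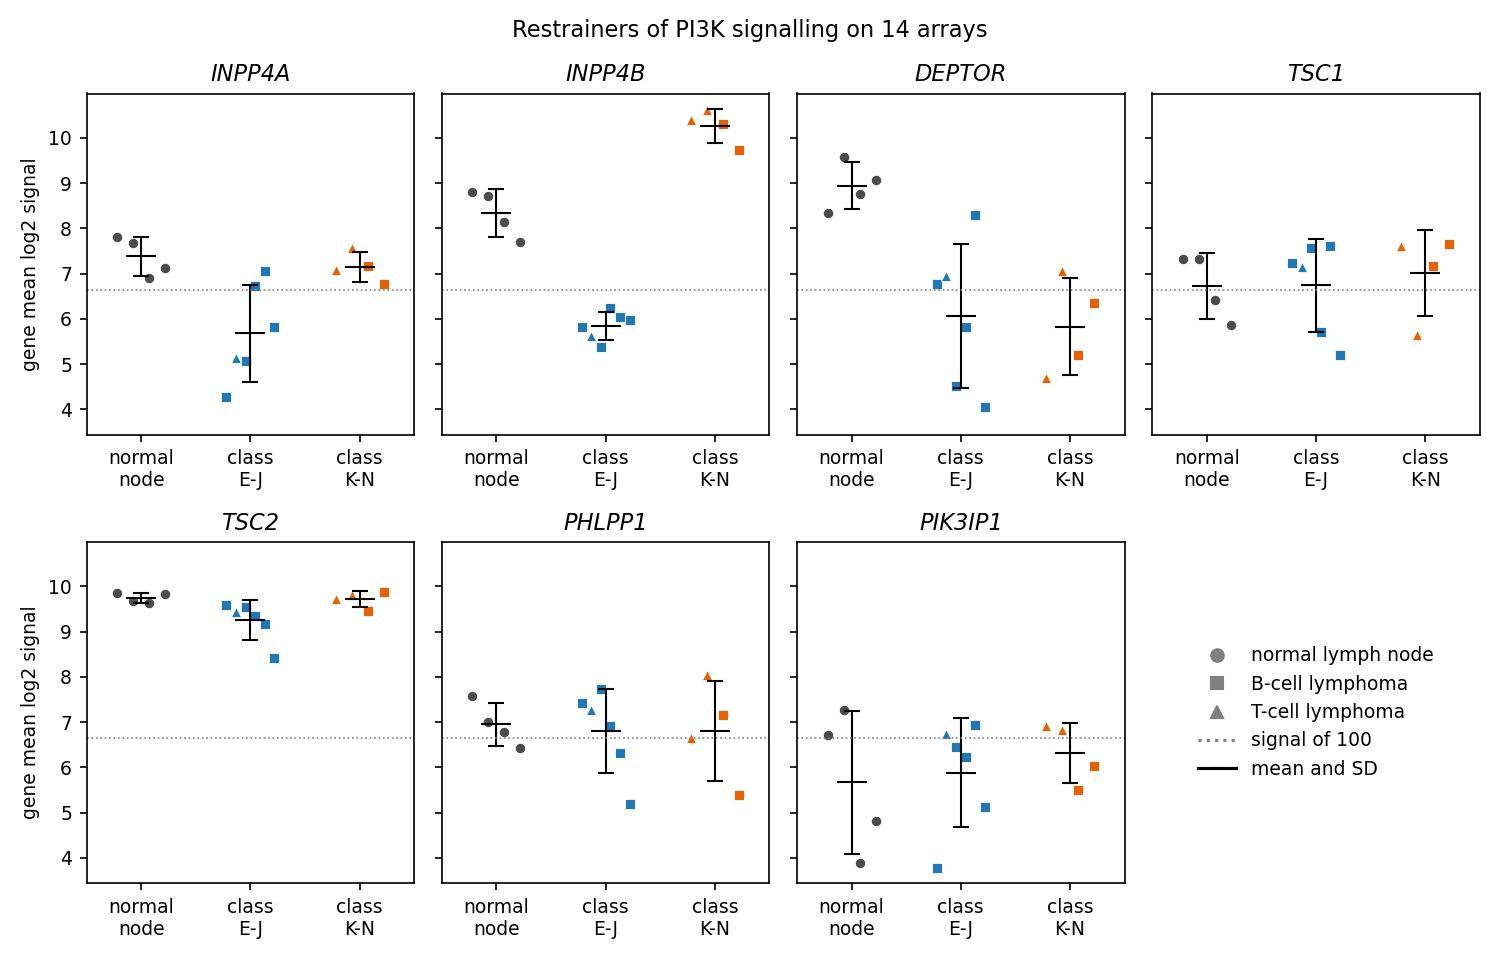
Gene mean log2 signal of the 7 measured members on each of the 14 arrays (y axis) by normal node, class E-J and class K-N (x axis), with shapes for the labelled diagnosis, bars for mean and SD and a dotted line at a signal of 100. INPP4B splits into 3 ranges that do not overlap, 5.37 to 6.24, 7.69 to 8.81 and 9.74 to 10.62, and DEPTOR is below all normals in every lymphoma.

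Both bright probe sets of INPP4B carried this pattern. The probe set CfaAffx.6377.1.S1_at read 10.46, 10.33, 9.70 and 9.78 in the normals 63, 2970, 3024l and 3024r. It read 5.36 (NE42) to 8.21 (RB03) in E-J and 12.48 (RB10) to 12.76 (NE45) in K-N. The probe set CfaAffx.6377.1.S1_s_at read 9.02 to 10.17 in the normals, 5.04 (NE41) to 7.43 (RB03) in E-J and 11.41 (RB07) to 12.09 in K-N. On either probe set the 3 ranges were apart. The third probe set, Cfa.7719.1.A1_at, had a signal of no more than 128 on any array and its ranges overlapped. It lowered the gene mean on every array but NE42.

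**Figure D2:**
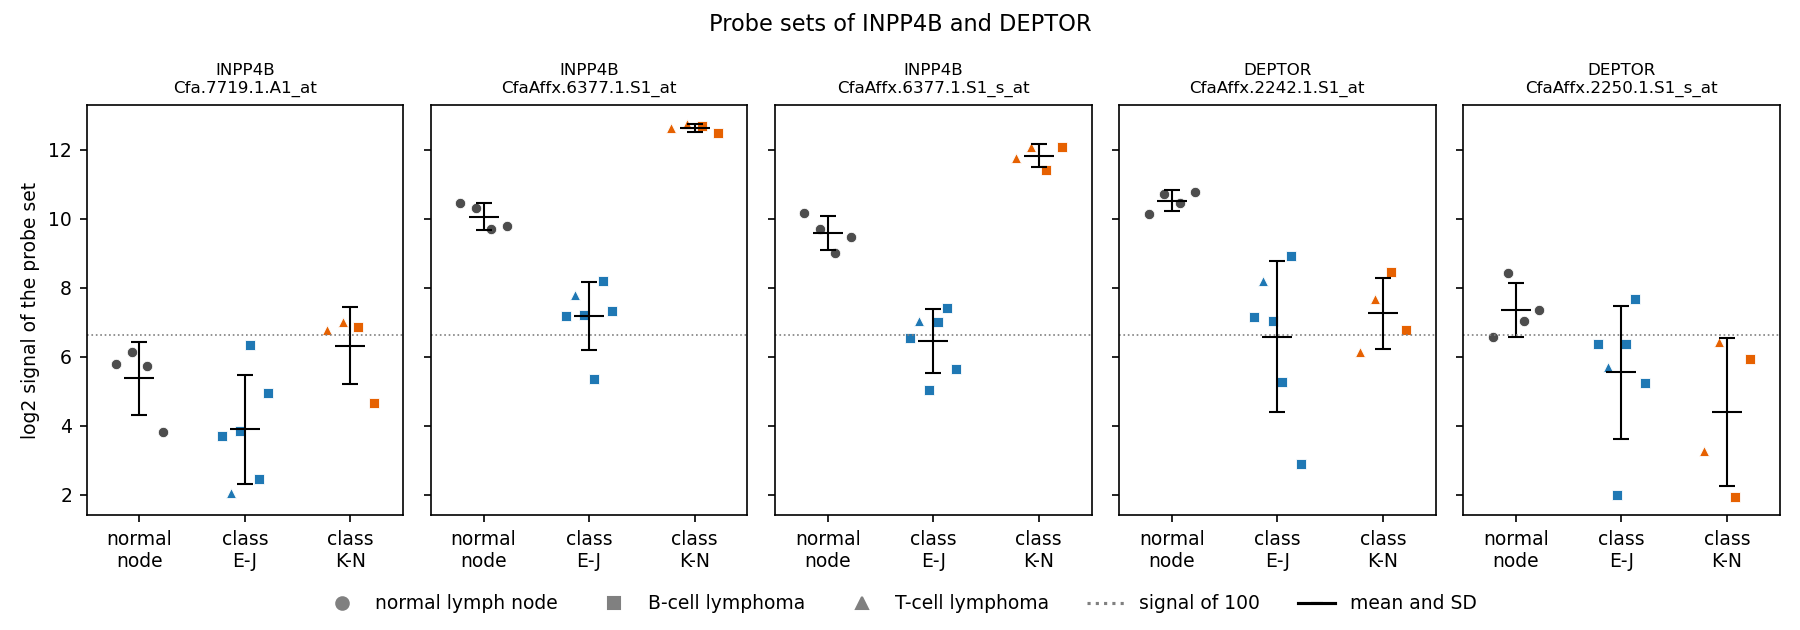
Log2 signal (y axis) of the 3 probe sets of INPP4B and the 2 of DEPTOR on each array, by normal node, class E-J and class K-N (x axis), with bars for mean and SD and a dotted line at a signal of 100. The 2 bright INPP4B probe sets separate the 3 groups, with K-N at 12.48 to 12.76 on the first of them. The dim INPP4B probe set overlaps between all groups. The dim DEPTOR probe set overlaps except between K-N and the normals, where K-N is lower by a gap of 0.14.

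A gene below all 4 normal arrays in E-J and above all of them in K-N was rare on this array, with 27 of 9400 genes or 0.287%. Taken alone, 7.97% of genes lay below the normals throughout E-J and 6.93% lay above them throughout K-N. INPP4B was the only member among the 27, and 3 of the 27 (CD2, CD4 and TRAT1) were on the list of 12 T-cell markers. The genes whose level ran closest to INPP4B over the 14 arrays were ANK3, an ankyrin (Pearson r = 0.95), NIBAN1 (r = 0.95) and CD3E (r = 0.95). These correlations describe arrays that fall into separate groups and carry no p.

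**Figure D3:**
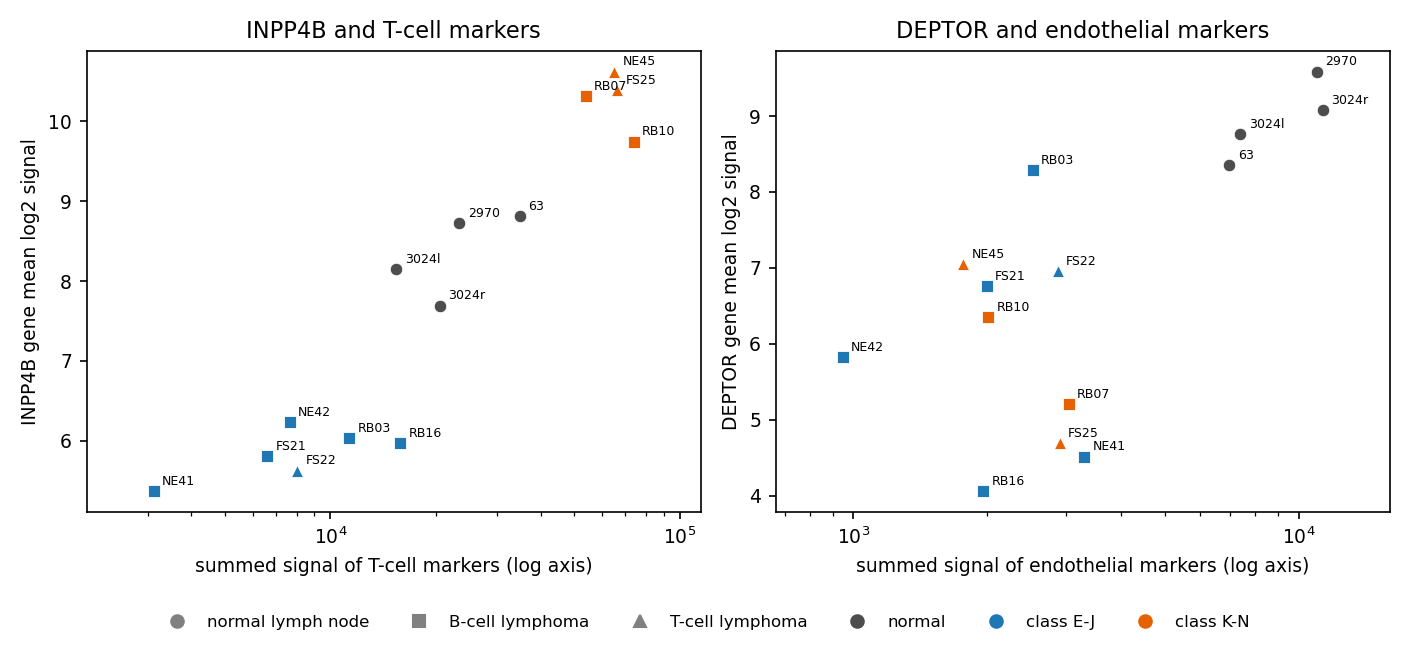
Left, INPP4B gene mean log2 signal (y axis) against the summed signal of 12 T-cell markers (x axis, log scale), and right, DEPTOR against the summed signal of 6 endothelial markers (x axis, log scale), 1 point per array, coloured by class and shaped by labelled diagnosis. Arrays with T-cell sums of 53874 and above have INPP4B at 9.74 or higher, and the 4 normal arrays are the highest in both DEPTOR and endothelial sum.

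The study's own comparison of B-cell lymphoma set FS21, NE42, RB03 and RB16 against the normal nodes 63, 2970 and 3024r. Low expression of T-cell genes in profiles of the same RNA was one ground for picking these lymphomas, so a gene that runs with T-cell markers had its direction partly set by that choice. INPP4B fell by 2.40 on the log2 scale (standard error 0.32, 95% interval -3.15 to -1.64, limma adjusted p = 0.00986), lower in 4 of 4 lymphomas than in every normal of the set. Its gene mean reached a signal of 100 in 3 of 3 normals and 0 of 4 lymphomas. INPP4B thus passed the filter only through the group where it was high, and this too partly set its direction. With signals raised to 100 the difference was -1.90. Taken singly, the probe set CfaAffx.6377.1.S1_at differed by -3.17 (standard error 0.63, adjusted p = 0.0308 over all probe sets) and CfaAffx.6377.1.S1_s_at by -3.13 (standard error 0.45, adjusted p = 0.0138). Of 8295 genes tested, 902 (10.9%) passed in either direction and 613 (7.39%) were lower. INPP4B was the 1 member of 7 that passed. The members' median difference was -0.74, beside -0.06 over all genes. The call was lost with the methods' t-test (adjusted p = 0.122) and without normal 2970 (limma adjusted p = 0.0594 on the same genes). It was also lost with all 3 labelled groups in 1 fit (difference -1.42, limma adjusted p = 0.598). That fit took all 7 labelled B-cell lymphomas and the 3 normal dogs, with the nodes of dog 3024 averaged. The T-cell lymphomas entered its estimate of spread. Adjusted p ranged from 0.000757 to 0.598 over 18 alternatives.

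Over all 10 lymphomas, which mix the low and the high arrays, the INPP4B difference was -0.87 (standard error 1.26, 95% interval -3.58 to 1.83, limma adjusted p = 0.763).

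In the B-cell set T-cell markers were lower too, with 7 of 12 past the threshold and a median difference of -2.71, while 2 of 8 B-cell markers were higher. The study picked these lymphomas in part for CD79a staining and for profiles without a strong T-cell signature. The direction of both groups of markers was thus partly set by that choice. Some of the called T-cell markers averaged below a signal of 100 in these lymphomas, so they may have passed the filter only through the normals. CD3E was 7.22 to 9.29 in the 4 lymphomas and 10.27 to 12.38 in the 3 normals. LCK, a kinase acting at the T-cell receptor, was below a signal of 100 in RB16 alone. Their part in the INPP4B difference was not tested. In an aspirate of mixed cells, fewer cells of a type and less RNA per cell cannot be told apart.

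Between lymphomas labelled B-cell and those labelled T-cell, INPP4B ranged from 5.37 to 10.32 and from 5.63 to 10.62, so the ranges almost coincided. The difference was -1.81 (standard error 1.38, 95% interval -4.86 to 1.24, limma adjusted p = 0.956). No gene of 8567 passed (0%) by limma or by the methods' t-test, though 313 had an unadjusted p under 0.05 from limma. Without RB07, RB10 and FS22, 286 of the same genes passed and INPP4B differed by -4.62 (adjusted p = 0.00112). That choice of arrays rested on CD3E, one of the genes closest to INPP4B, so it is no independent test. Within clinics the difference was -2.20 at FS (1 B-cell, 2 T-cell) and -4.81 at NE (2 B-cell, 1 T-cell), and RB had no T-cell lymphoma. With clinic as a block it was -3.51 (limma adjusted p = 0.704).

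INPP4A, the paralogue of INPP4B, shared its pattern in part, being low in most of E-J but not above the normals in K-N. Over the 14 arrays their levels ran together with r = 0.72, the highest of any pair of members, given as a description. The normals 63, 2970, 3024l and 3024r were at 7.81, 7.69, 6.91 and 7.12 on the log2 scale. The E-J lymphomas were at 4.26 in FS21, 5.14 in FS22, 5.06 in NE41, 6.72 in NE42, 7.07 in RB03 and 5.82 in RB16, and RB03 alone lay within the normal range. A signal of 100 was reached by 2 of these 6 gene means, so most of the low values were dim. E-J minus normals was -1.70, and -0.69 with probe set signals raised to 100. On each probe set alone E-J overlapped the normals. The K-N lymphomas, at 7.09 in FS25, 7.57 in NE45, 7.17 in RB07 and 6.77 in RB10, were about level with the normals. The difference between all lymphomas and the normal dogs was -1.24 (standard error 0.63, 95% interval -2.60 to 0.12, limma adjusted p = 0.316), and in the B-cell set it was -1.57 (standard error 0.65, 95% interval -3.09 to -0.05, limma adjusted p = 0.157). The probe sets disagreed in K-N, where CfaAffx.4381.1.S1_at (6.24 to 7.12) was below all 4 normals (7.64 to 8.01) and CfaAffx.4384.1.S1_s_at (7.05 to 8.11) reached above some or all of them (6.06 to 7.62). On the latter K-N was also above all of E-J (1.74 to 7.03), by a gap of 0.02. The genes closest to INPP4A were TMEM181 (r = 0.93), KLHL4 (r = 0.90) and LCP2, an adaptor of T-cell receptor signalling (r = 0.89).

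DEPTOR, the inhibitor bound to mTOR, was lower in every lymphoma than in every normal node. The normals 63, 2970, 3024l and 3024r were at 8.35, 9.58, 8.76 and 9.08. The E-J lymphomas spread widely, at 6.76 in FS21, 6.95 in FS22, 4.52 in NE41, 5.82 in NE42, 8.29 in RB03 and 4.06 in RB16. The K-N lymphomas were at 4.69 in FS25, 7.05 in NE45, 5.21 in RB07 and 6.35 in RB10. RB03 was below the lowest normal by just 0.06, whereas K-N was below it by 1.30. Over the array 3.55% of genes were below all 4 normal arrays in all 10 lymphomas, and 9.12% were below them throughout K-N. Both classes overlapped, with means of 6.07 ± 1.60 (SD, n = 6) and 5.83 ± 1.07 (n = 4).

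Both probe sets were lower on average in the lymphomas, but only the brighter was apart from the normals in all of them. CfaAffx.2242.1.S1_at read 10.13 to 10.79 in the 4 normal nodes and 2.89 (RB16) to 8.92 (RB03) in the lymphomas, a gap of 1.21. CfaAffx.2250.1.S1_s_at read 6.57 to 8.43 in the normals, 1.99 to 7.66 in E-J and 1.94 to 6.43 in K-N. On it K-N was below all normals by a gap of 0.14, while E-J overlapped them. It reached a signal of 100 on 4 arrays, none of them in K-N. Over all lymphomas the 2 probe sets differed by -3.65 and -2.31 (limma adjusted p = 0.0655 and 0.296 over all probe sets). Against the 3 normal dogs, with the nodes of dog 3024 averaged, the gene fell by 2.98 in the 10 lymphomas (standard error 0.76, 95% interval -4.61 to -1.35, limma adjusted p = 0.0481), and with signals raised to 100 the difference was -1.88. Of 9216 genes tested, 337 (3.66%) passed in either direction and 237 (2.57%) were lower, and DEPTOR was the 1 member of 7. After quantile normalization the split of higher to lower calls was 151 to 227 in place of 100 to 237, and in the B-cell set 411 to 526 in place of 289 to 613. The members' median difference was -0.31, beside -0.02 over all genes.

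The call for DEPTOR was a narrow one. It held in 6 of 16 alternatives, with adjusted p from 0.00262 to 0.237, and was lost without dog 2970 (0.237), dog 3024 (0.164) or dog 63 (0.112), with 3024l alone for its dog (0.0631) and without RB07, RB10 and FS22 (0.0782). In the B-cell set, which shares its normals with this comparison, the difference was -2.77 (standard error 0.91, 95% interval -4.89 to -0.64, limma adjusted p = 0.0940). Adjusted p ran from 0.0144 to 0.268 over 21 alternatives, of which 4 passed. Among these 4 was the set without RB03, with a difference of -3.45 (limma adjusted p = 0.0251). RB03 had the highest DEPTOR of the lymphomas, so leaving it out could only widen the difference. Between labelled B-cell and T-cell lymphomas it was -0.38 (standard error 0.87, 95% interval -2.31 to 1.56, limma adjusted p = 0.978).

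Markers of the node's supporting cells were also lower in the lymphomas. The summed signal of 6 endothelial markers was 6988 to 11318 in the normals, 946 to 3295 in E-J and 1763 to 3047 in K-N, and 2 of the 3 tested passed as lower in all lymphomas. That of 7 stromal markers was 5463 to 7166, 440 to 2136 and 925 to 4771, with 3 of 6 lower, and that of 11 myeloid markers was 33341 to 72411, 8756 to 42341 and 8563 to 21482, with 8 of 11 lower. Among the lymphomas, RB16 had the lowest DEPTOR (4.06), with endothelial, stromal and myeloid sums of 1955, 924 and 42341. RB03 had the highest DEPTOR (8.29), with sums of 2529, 1411 and 18699. Such sums follow their brightest markers most. CD163, a scavenger receptor of macrophages, was below a signal of 100 on all 6 E-J arrays, on 2 of K-N and on the normal 3024l. PECAM1 and COL1A1, which mark endothelium and fibroblasts, stayed above it on all 14 arrays. Their part in the DEPTOR difference was not tested. The genes closest to DEPTOR were NR2F2, a transcription factor of venous and lymphatic endothelium (r = 0.95), HSD17B14 (r = 0.93) and MTUS1 (r = 0.92).

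The complex of TSC1 and TSC2 was nearer to level. TSC2, its catalytic partner, was bright on all 14 arrays, at 9.86, 9.67, 9.63 and 9.84 in the normals 63, 2970, 3024l and 3024r. The E-J arrays read 9.60 in FS21, 9.44 in FS22, 9.56 in NE41, 9.35 in NE42, 9.18 in RB03 and 8.43 in RB16, and the K-N arrays 9.72 in FS25, 9.80 in NE45, 9.46 in RB07 and 9.88 in RB10. On the gene mean E-J was below all normals, though by a gap of 0.04, and RB16 was well under the rest, while K-N overlapped the normals. On each of the 2 probe sets alone E-J overlapped the normals. Over the array 7.97% of genes lay below the normals throughout E-J. The difference was -0.31 over all lymphomas (standard error 0.28, 95% interval -0.91 to 0.29, limma adjusted p = 0.589) and -0.65 in the B-cell set (standard error 0.31, 95% interval -1.38 to 0.08, limma adjusted p = 0.207). Of the 2 probe sets, Cfa.10867.1.A1_at differed by -0.56 over all lymphomas and CfaAffx.29719.1.S1_s_at by -0.07. The closest genes were STXBP5 (r = 0.88), FYN, a kinase of the SRC family (r = 0.88), and PDGFRL (r = 0.88).

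TSC1, which stabilises TSC2, ranged over 5.86 to 7.33 in the normals, 5.20 to 7.61 in E-J and 5.64 to 7.65 in K-N, and no class was apart from another. The difference over all lymphomas was -0.08 (standard error 0.56, 95% interval -1.29 to 1.14, limma adjusted p = 0.962), and its sign turned under quantile normalization and median centring. In the B-cell set it was -0.40 (standard error 0.68, 95% interval -1.99 to 1.20, limma adjusted p = 0.718). Of its 4 probe sets, 2 were below a signal of 100 on nearly all arrays, and the brightest, CfaAffx.30430.1.S1_at, read 8.97 to 10.03 in the normals and 7.91 to 9.73 in the lymphomas. The closest genes were CHST12 (r = 0.84), GET3 (r = 0.80) and DROSHA (r = 0.78).

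The Akt phosphatase PHLPP1 had 1 probe set, CfaAffx.1086.1.S1_at, at 6.44 to 7.58 in the normals, 5.20 to 7.74 in E-J and 5.38 to 8.04 in K-N. RB16 and RB10 were the lowest arrays. The difference over all lymphomas was -0.26 (standard error 0.55, 95% interval -1.44 to 0.92, limma adjusted p = 0.850), and in the B-cell set -0.54 (standard error 0.55, 95% interval -1.83 to 0.74, limma adjusted p = 0.534). The closest genes were KLF10 (r = 0.79), LDHA (r = 0.79) and STK25 (r = 0.79).

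PIK3IP1, the inhibitor at p110, was dim and the least steady among normals. It was at 6.72, 7.26, 3.89 and 4.82 in 63, 2970, 3024l and 3024r, so the nodes of dog 3024 lay below those of the other 2 dogs. The E-J arrays ranged from 3.78 in FS21 to 6.94 in RB03 and the K-N arrays from 5.51 in RB07 to 6.91 in FS25. The probe set CfaAffx.20241.1.S1_at alone read 7.73 and 8.58 in 63 and 2970 but 2.46 and 1.48 in 3024l and 3024r, whereas Cfa.18245.2.S1_s_at read 6.49 to 7.08 in the same 4 nodes. The 95% interval of the difference over all lymphomas ran from -1.54 to 1.42 (limma adjusted p = 0.976), and that in the B-cell set from -2.75 to 1.26 (limma adjusted p = 0.587). Between labelled B-cell and T-cell lymphomas the difference was -1.09 (standard error 0.58, 95% interval -2.38 to 0.19, limma adjusted p = 0.956). The genes closest to PIK3IP1 were SUSD5 (r = 0.84), SPATA2 (r = 0.84) and SLC7A6OS (r = 0.83).

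By labelled diagnosis, B-cell minus T-cell, the difference was -0.47 for INPP4A, 0.08 for TSC1, -0.30 for TSC2 and -0.72 for PHLPP1, each with a limma adjusted p of 0.956 or above. Without RB07, RB10 and FS22 it was -1.54 for INPP4A, 0.04 for TSC1, -0.54 for TSC2, -0.62 for PHLPP1, -1.15 for PIK3IP1 and 0.017 for DEPTOR, with adjusted p from 0.329 to 0.995 on the same genes. Some of these values differed between clinics. With 1 B-cell and 2 T-cell lymphomas at FS, FS22 among them, and 2 and 1 at NE, clinic cannot be told apart from single dogs. INPP4A differed by -1.85 within FS and -1.68 within NE, and by -1.76 with clinic as a block (limma adjusted p = 0.704). PIK3IP1 differed by -3.04 within FS and -0.47 within NE, and by -1.75 with the block (limma adjusted p = 0.704). DEPTOR, TSC1, TSC2 and PHLPP1 each had opposite signs in the clinics, at 0.94, -0.15, 0.017 and 0.48 within FS and -1.88, 0.99, -0.35 and -0.71 within NE.

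**Figure D4:**
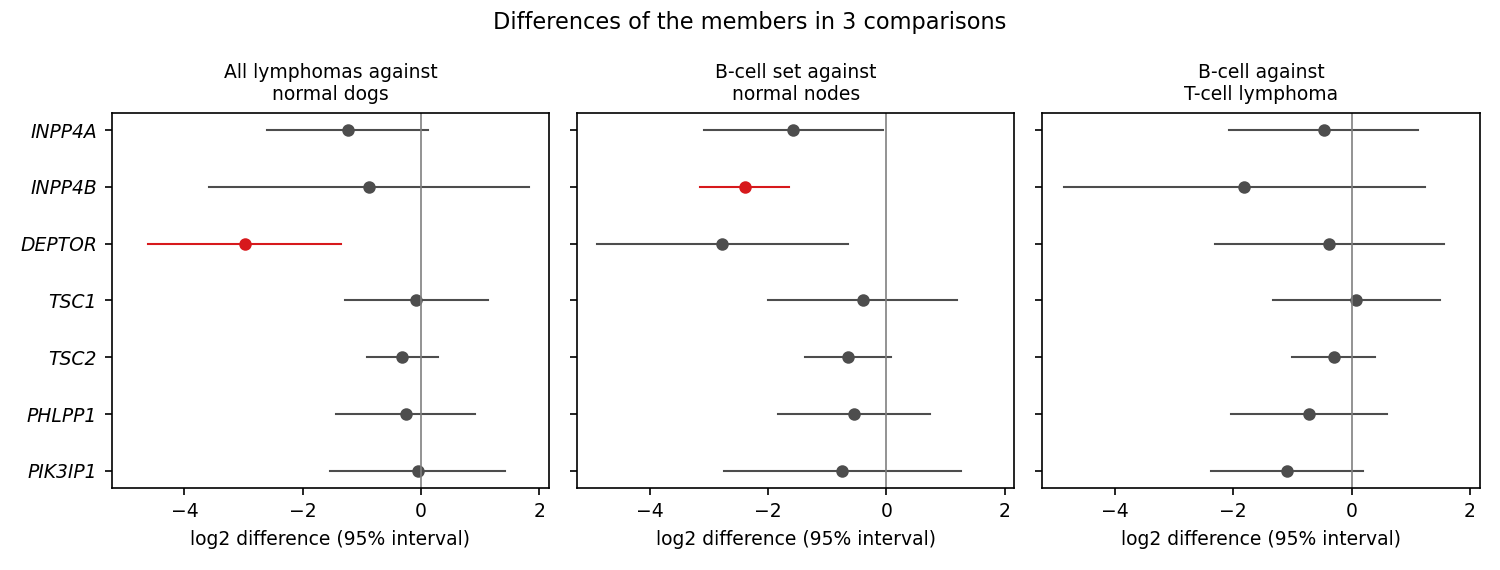
Log2 difference (x axis) of each measured member (y axis) in the 3 comparisons, with 95% intervals from limma and in red those past an adjusted p of 0.05. DEPTOR at -2.98 among all lymphomas and INPP4B at -2.40 in the B-cell set are the only red points, and intervals of the other members reach over 1 log2 unit to either side in several cases.

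With this number of arrays a large change could be missed. When 100 genes of simulated data were shifted by 2 log2 units, limma called 44 of them in the comparison of all lymphomas, 49 in the B-cell set and 50 in the comparison by labelled diagnosis.

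The rest of the pathway was taken from 4 lists of 79 genes in all, of which 71 were on the array. At an unadjusted p under 0.05 from limma there were 1711 of 9216 genes over all lymphomas. In the B-cell set there were 2487 of 8295, and 10.9% of genes were called. Among subunits and adaptors of PI3K, limma called 0 of 14 over all lymphomas (4 at an unadjusted p under 0.05). In the B-cell set the list's median was -0.43 (5 of 12 at an unadjusted p under 0.05), and 2 of 12 were called, both lower. One was PIK3CG, the gamma catalytic subunit found mainly in leukocytes, at -2.73 (standard error 0.44, limma adjusted p = 0.0150), with 7.41 to 9.07 in the 4 lymphomas and 10.82 to 11.48 in the 3 normals. In K-N it was 10.07 to 10.57, and on the normal 3024l, outside the set, 9.84. The other was PIK3C2A, a class II PI3K, at -1.01 (standard error 0.21, limma adjusted p = 0.0290), with 9.44 to 9.92 in the lymphomas and 10.64 to 10.70 in the normals. In K-N, where T-cell markers were high, PIK3C2A was 8.67 to 9.59, and on 3024l it was 10.13. The T-cell and myeloid markers were lower in this set too, and their part in these differences was not tested.

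Of the genes of Akt and the mTOR complexes, limma called 0 of 17 over all lymphomas and 0 of 15 in the B-cell set (1 and 1 at an unadjusted p under 0.05), with medians of -0.12 and -0.26. Of other restrainers of the pathway it called 0 of 20 and 0 of 17 (0 and 1 unadjusted), with medians of 0.13 and -0.15. Among FOXO factors and their targets, 1 of 8 and 2 of 8 passed, all lower, with medians of -0.74 and -1.11. FOXO1 and FOXO3 themselves differed by -0.35 and 0.09 over all lymphomas. Akt activity was not measured here. TXNIP, a thioredoxin inhibitor, fell by 1.52 over all lymphomas (standard error 0.36, limma adjusted p = 0.0395) and by 2.13 in the B-cell set (standard error 0.35, limma adjusted p = 0.0157). IL7R, the interleukin 7 receptor chain of T cells, fell by 2.85 in the B-cell set (standard error 0.50, limma adjusted p = 0.0191). T-cell markers were lower in this set too, and their part in the IL7R and TXNIP differences was not tested. IL7R was among the 27 genes that lay, like INPP4B, below the normals in E-J and above them in K-N, at 8.30 to 9.88, 10.80 to 12.34 and 12.61 to 14.22. Between labelled B-cell and T-cell lymphomas no gene of these 4 lists passed. At an unadjusted p under 0.05 from limma there were 5 of 17 among Akt and mTOR genes and 1 of 13 among PI3K subunits. There were 0 of 19 other restrainers and 0 of 8 FOXO genes, beside 313 of all 8567 genes.

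**Figure D5:**
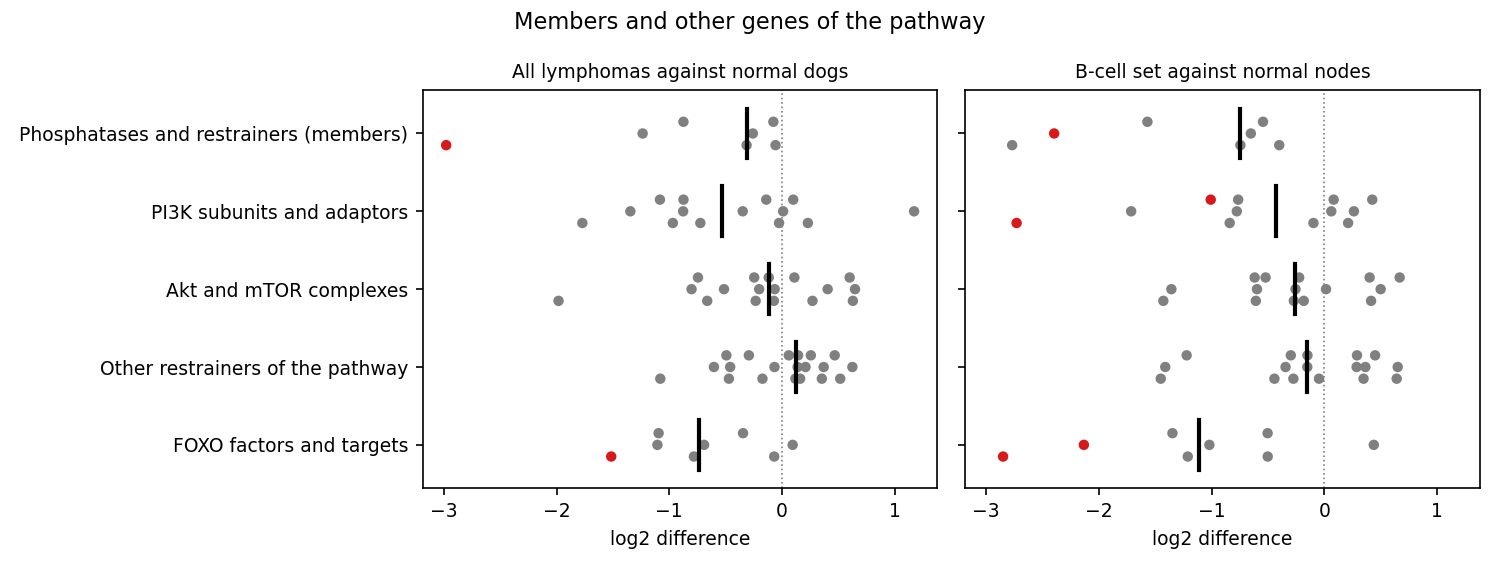
Log2 differences (x axis) of the measured members and of the genes of 4 pathway lists (y axis) among all lymphomas (left) and in the B-cell set (right) against normals, 1 point per gene, red past an adjusted p of 0.05, black bar at the median. The members' medians are -0.31 and -0.74, and the red points of the right panel are INPP4B, PIK3CG, PIK3C2A, TXNIP and IL7R, all to the left of 0.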

How the data were processed

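Aspirate RNA was amplified, biotin-labelled and hybridised to GeneChip Canine Genome arrays, 1 array per node. The authors summarised probe intensities per probe set with MAS5 (named in the submitters' processing notes, version not given in the sources used here) and deposited them as linear intensity values, after bringing the trimmed mean of every array to 500. Neither detection calls nor sequencing reads were used here.

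The log2 of the deposited signals was used unscaled. Of 43035 probe sets, 29703 were in the array's gene table (annotation of 2016), 439 with several symbols. Without the 111 control probe sets, 29254 of a single symbol remained, and their mean log2 signal per symbol gave 15115 genes (6861 rested on 1 probe set). A gene entered a comparison when 3 or more of its samples reached a signal of 100, and was tested with limma 3.58.1 in R 4.3.3 (lmFit, eBayes), with Benjamini-Hochberg adjustment over all genes tested and a threshold of 0.05. Groups followed the labels, and the B-cell set followed the methods. Where signals were raised to 100, this was done per probe set before averaging. Between classes, ranges and means were described. Lymphoma labels stand for separate dogs.

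Members and lists (PI3K subunits, Akt and mTOR, other restrainers, FOXO, and markers of B, T, cytotoxic and NK, myeloid, endothelial and stromal cells and of blood) were chosen with earlier results of these data known. Genes named are the members, the 3 with the highest Pearson r over 14 arrays for each, up to 4 called per pathway list, and defining markers; CD2, CD4 and TRAT1 were named after their values were seen. Of the lists not given above, cytotoxic and NK markers had 0 of 5 and 1 of 5 (lower) past the threshold over all lymphomas and in the B-cell set, and blood markers 1 of 2 (higher) and 0 of 0. In the B-cell set 3 of 3 endothelial, 5 of 6 stromal and 9 of 11 myeloid markers were lower. Over all lymphomas 0 of 8 B-cell and 0 of 12 T-cell markers passed, and between labelled B-cell and T-cell lymphoma no marker passed. Scripts were tested on simulated data. No genome coordinates or sequences were used. Plots were made in Python 3.11.15 (matplotlib 3.10.9).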

Additional observations from a re-analysis of the deposited data

Results flagged for a closer look

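TSC2 was 8.43 on the log2 scale in RB16, far under the next lowest lymphoma of class E-J, RB03 at 9.18, and RB16 also stood apart among all 10 lymphomas with the same value of 8.43. In 35 combinations of member and group looked at, 2 had such a sample, and about 1 in 20 would by chance. INPP4B was 1.92 higher in class K-N than in the normal nodes while every array of class E-J was lower than every normal node. The difference between the classes was not tested, since the classes were drawn from the same profiles.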

How the results depend on the processing

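No paired analysis was possible because every dog belonged to a single group. Clinic was run as a block between labelled B-cell and T-cell lymphoma, where 0 genes passed and no member changed direction. The choices added after seeing the data were leaving RB07, RB10 and FS22 out of all lymphomas, keeping the genes of the full B-cell set when a normal was left out, and keeping those of the B-cell against T-cell test without these 3 arrays.

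For all lymphomas against normal dogs, 337 genes passed. The count was 112 with no filter, 715 with 50 added to signals, 918 with signals raised to 100, 561 with linear means, 506 among probe sets, 884 by the methods' t-test, 197 with 3024l alone for its dog, and 10 to 79 without 1 normal dog (10 without 2970, 57 without 3024, 79 without 63). The member count went from 1 to 0 with no filter, quantile normalization, median centring, the brightest probe set, probe sets as the unit, all 3 groups in 1 fit, 3024l alone, any normal dog left out, or RB07, RB10 and FS22 left out. TSC1 turned to 0.085 (quantile), 0.018 (median centring) and 0.015 (3024r alone), and ran from -0.48 to 0.12 without 1 normal dog. PIK3IP1 turned to 0.038 (quantile), 0.037 (median centring) and 0.098 with 3024l alone, and ran from -0.93 to 0.52 without 1 normal dog. PHLPP1 turned to 0.0099 with signals raised to 100.

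For the B-cell set, 902 genes passed. The count was 193 with no filter, 1613 with 50 added, 1807 with signals raised, 1424 with linear means, 1390 among probe sets, 8 by the methods' t-test, 168 with all 3 groups in 1 fit, 232 when 3024l replaced 3024r, and 15 to 1207 without 1 array (593 without NE42, 70 without 63, 25 without 3024r, 15 without 2970). On the genes of the full set it was 201, 136 and 82 without 63, 3024r and 2970. The member count was 2 with 50 added, signals raised or linear means, 0 by the t-test and in 1 fit, and 0 to 2 without 1 array: 2 without RB03 (with DEPTOR), and 0 without any normal, where INPP4B no longer had 3 arrays at 100 and was not tested. On the genes of the full set it was 0 without 2970. TSC1 ran from -0.89 to 0.014 without 1 array, positive without RB16.

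Between labelled B-cell and T-cell lymphoma 0 genes passed, 267 without RB07, RB10 and FS22, 286 on the genes of the full set with 1 member (INPP4B), and 0 to 1 without 1 array (1 without FS21 or FS22). DEPTOR turned to 0.0087 with signals raised and 0.017 without the 3 arrays on either set of genes. Without 1 array DEPTOR ran from -1.15 to 0.034 and INPP4A from -1.20 to 0.013, both positive without NE45, and TSC1 from -0.50 to 0.48, negative without RB10, NE41, RB03 or NE45. The cause was not tested. All other alternatives kept the direction of members. Scaling moved the median of all genes in the B-cell set from -0.06 to 0.07 (quantile) or 0.09 (median centring).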
